A study of Mus musculus with 8 samples.

Results

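The genes described here encode Gi-coupled receptors of adipocytes whose activation restrains the breakdown of stored fat. They are the lactate receptor Hcar1, the 3-hydroxybutyrate and niacin receptor Hcar2, the adenosine receptor Adora1, the prostaglandin E2 receptor Ptger3, the adrenergic receptor Adra2a, the neuropeptide Y receptor Npy1r and the short-chain fatty acid receptor Ffar2. They were selected by symbol and make up 7 of the 49452 genes in the table. Hcar1 was picked for its fall in the cold, so its 22 °C and 4 °C values are a description with no test. The values of the other 6 and the diet values of Hcar1 were not used in the rule. Gene expression was measured by RNA-Seq in male C57BL/6 mice, in 8 libraries of brown adipose tissue (BAT) that form 4 groups of 2. One pair of groups was 10 to 12 weeks old and was kept at 22 °C (replicates 4 and 7) or moved to 4 °C (replicates 2 and 11) for 24 h, of which the last 4 h were spent without food. Whether the 22 °C mice were fasted too is not clear from the sources. The other pair was 32 weeks old and had received 28 weeks of high-fat diet (HFD, replicates 2 and 6) or of the control food (CD, replicates 6 and 8). The labels call this food chow, and the methods describe a matched control diet. No transgene, deletion or drug is named for any group. Age and cohort cannot be told apart from the other differences between the temperature pair and the diet pair, so those were not tested against each other.

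Fat cells break down triglyceride when noradrenaline acts on Gs-coupled β-adrenergic receptors, which stimulate adenylyl cyclase, raise cyclic AMP and activate protein kinase A and the lipases. Receptors that couple to Gi inhibit adenylyl cyclase and so oppose this signal. Many of their ligands are made in or near the fat cell, among them lactate, ketone bodies, adenosine and prostaglandin E2, so that the tissue can limit its own lipolysis. BAT burns the released fatty acids to make heat, and noradrenaline released in the cold is its main stimulus.

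Hcar1 (ENSMUSG00000049241) and Hcar2 (ENSMUSG00000045502) are neighbours on the minus strand of chromosome 5 in the mouse assembly GRCm38. Each is annotated as a single exon, Hcar1 at 123876736 to 123880020 and Hcar2 at 123863570 to 123865499, with 11236 bases between them. The sequence just upstream of Hcar1 is shown because this gene had the widest fold range among the 7. It covers 233 bases (GRCm38.p6, chr5:123880021-123880253, minus strand, RefSeq) and is read 5′ to 3′ towards the start of the transcript, with capitals marking CACCC or its reverse complement GGGTG. Of the 7 receptors, all but Hcar2 matched a RefSeq promoter entry.
Hcar1 upstream: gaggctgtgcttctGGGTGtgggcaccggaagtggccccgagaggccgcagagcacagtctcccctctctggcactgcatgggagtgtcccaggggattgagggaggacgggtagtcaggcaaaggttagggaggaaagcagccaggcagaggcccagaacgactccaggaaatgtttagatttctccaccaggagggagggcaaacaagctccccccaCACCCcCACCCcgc
CACCC was picked as a motif after the sequence had been seen. It occurred 14 to 10 and 8 to 4 bases before the start, and its reverse complement 219 to 215 bases before it. On either strand this motif was found in 57.5% of 32851 RefSeq mouse promoters of the same kind (250 bases before to 50 bases after the start). The letters AGGTCA (the nuclear receptor half-site, in 16.3% of promoters), TGACG (the half-site of the cAMP response element, in 20.8%), CCAAT (37.4%), CACGTG (7.15%) and TATAAA (13.6%) were not found in the Hcar1 window on either strand.

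All values are FPKM, which scale fragment counts to transcript length and to the total of the library, so levels can be compared between genes per length of transcript. The 10 listed markers of brown adipocytes were all in the table and none was at 0 in both libraries of a group. Ucp1, the uncoupling protein that makes heat, averaged 1063 FPKM at 22 °C, 5916 at 4 °C, 2909 under CD and 2501 under HFD. The libraries held 23543 to 32686 genes above 0 and 10228 to 11436 genes at 1 FPKM or more. In both 22 °C libraries and CD replicate 6, all 2613 X-linked genes were listed at 0, against 779 to 1175 above 0 in the other 5 libraries. Y genes and most mitochondrial genes were also listed at 0 in both 22 °C libraries and CD replicate 6. The satellite transcript Gm10800 was over 100 FPKM in 1 library of every group, namely 4 of 22 °C, 11 of 4 °C, 8 of CD and 2 of HFD. Differences between groups were therefore also computed within the satellite-high and within the satellite-low libraries. Fold changes are differences in log2(FPKM + 1) from limma with their standard error (SE), understate the change of genes with low FPKM, and count as past the threshold at an adjusted p under 0.05 with a change of at least 1. They are read against the median expressed mRNA gene (of 9927 averaging 1 FPKM or more), which moved by 0.21 at 4 °C and by 0.29 under HFD. The labels do not state that each library came from its own mouse, so p-values measure the spread between libraries.

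The lactate receptor Hcar1 had its highest values in the mice at 22 °C. At 22 °C it stood at 11.2 and 12.3 FPKM, and at 4 °C it stood at 0.748 and 0.435 FPKM. The CD libraries had 1.02 and 0.426 FPKM and the HFD libraries 1.23 and 1.72 FPKM. Both 22 °C libraries lay far above the other 6, and the CD and 4 °C libraries overlapped. The mean was 11.8 ± 0.751 FPKM (SD, n = 2) at 22 °C and 0.592 ± 0.221 FPKM (SD, n = 2) at 4 °C, a 19.9-fold lower mean in the cold. On the log2(FPKM + 1) scale the difference was -3.01, with -3.09 in the satellite-high and -2.93 in the satellite-low libraries. In these whole-tissue samples, fewer cells of a type and less RNA per cell cannot be told apart.

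Hcar1 also held a different place among the 7 receptors and among all genes. At 22 °C it made up 28.9% and 26.1% of their summed FPKM, against 1.70% to 4.48% in the other 6 libraries. Of 20592 autosomal protein-coding genes, 88.0% and 88.6% had a lower level than Hcar1 in the 22 °C libraries, and 46.8% to 56.1% in the other 6. The values correspond to an estimated 4362 and 4611 fragments at 22 °C and to 126 to 492 fragments elsewhere. CD replicate 6, in which X-linked genes are listed at 0 as in both 22 °C libraries, had 1.02 FPKM of Hcar1.

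**Figure D1:**
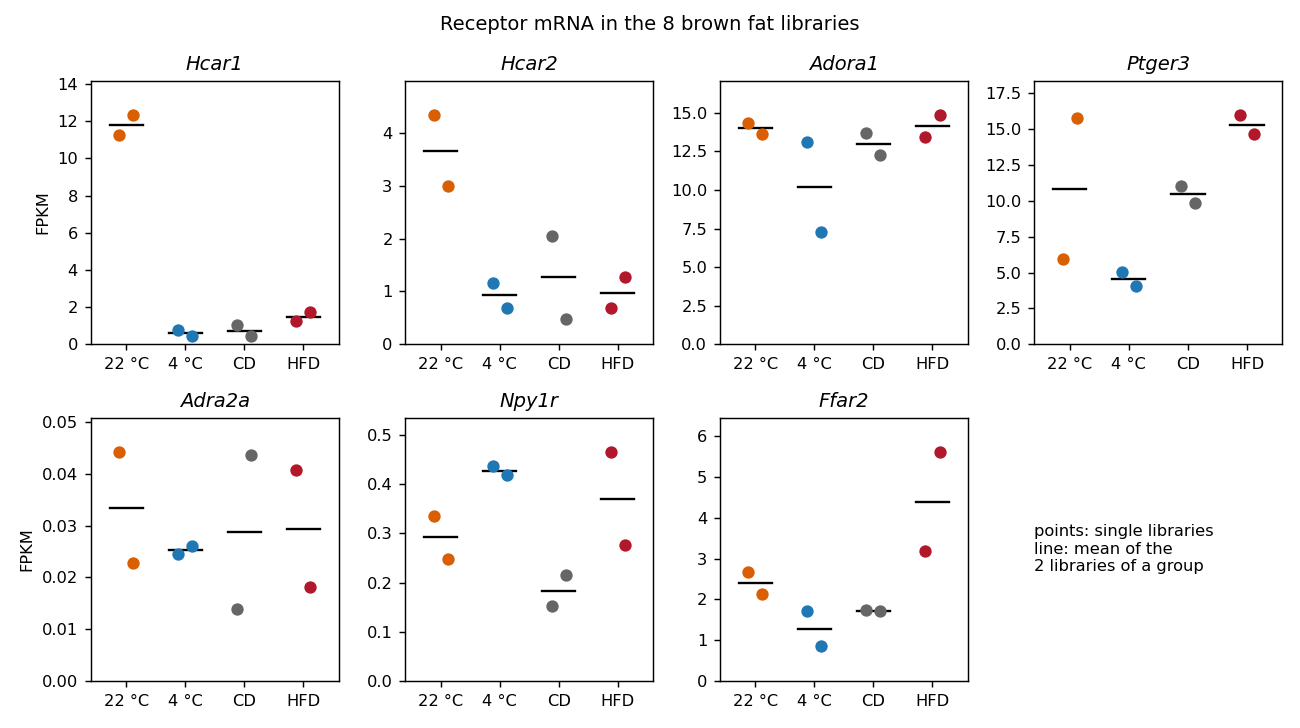
FPKM of the 7 receptor genes (vertical axes, each gene on its own linear scale from 0) in the 22 °C, 4 °C, CD and HFD groups. Points are single libraries and lines the mean of the 2 libraries of a group. Hcar1 stood at 11.2 and 12.3 FPKM at 22 °C and at no more than 1.72 FPKM in the other libraries, Hcar2 had its 2 highest values at 22 °C and Ffar2 its 2 highest under HFD.

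The neighbouring ketone body receptor Hcar2 was also highest at 22 °C. It reached 4.33 and 3.002 FPKM there, 1.16 and 0.693 FPKM at 4 °C, 2.05 and 0.484 FPKM under CD, and 0.681 and 1.28 FPKM under HFD. The 22 °C libraries were above all 6 others, which overlapped each other. From 22 °C to 4 °C the mean went from 3.67 ± 0.941 to 0.924 ± 0.328 FPKM (SD, n = 2 each), 3.97-fold lower, with a log2 fold change of -1.27 (SE 0.23, 95% confidence interval -1.84 to -0.70). With limma's moderated test the adjusted p was 0.0582 over all genes, just short of the threshold. Over the alternatives tried, the adjusted p ranged from 0.0353 to 0.182 and was past the threshold in 7 of them. In 1 of the 7, X, Y and mitochondrial genes were kept, with difference and SE unchanged (-1.27, SE 0.23, adjusted p 0.0382 with limma). That setting adds X genes listed at 0 in both 22 °C libraries to the adjustment, so its pass is no separate support. Within the satellite-high libraries the difference was -1.66, and within the satellite-low libraries -0.89.

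The ratio of the 2 neighbouring receptors is a description with no test, since Hcar1 was picked for its fall in the cold. Hcar1 was 2.60 and 4.10 times the level of Hcar2 at 22 °C, and 0.647 and 0.628 times its level at 4 °C. The ratio was 0.496 and 0.881 under CD and 1.81 and 1.35 under HFD. Hcar1 thus exceeded Hcar2 in all libraries at 22 °C and under HFD, and was below it in all at 4 °C and under CD. The other genes within 100000 bases of Hcar1 with a test in the cold did not pass the threshold. They were Denr, a translation factor (log2 fold change 0.21, adjusted p 0.632), Hip1r, an endocytic adaptor (0.26, adjusted p 0.526), Ccdc62 (-0.11, adjusted p 0.722) and Gm43518 (-0.18, adjusted p 0.278).

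Adora1, which binds adenosine from the breakdown of ATP, was the receptor with the most even level. It stood at 14.3 and 13.7 FPKM at 22 °C, 13.1 and 7.29 FPKM at 4 °C, 13.7 and 12.3 FPKM under CD and 13.5 and 14.8 FPKM under HFD. Only 4 °C replicate 11 was below 12 FPKM, and neighbouring groups in the order of their means overlapped throughout. The cold difference was -0.47 (SE 0.29, 95% confidence interval -1.21 to 0.27, adjusted p 0.378 with limma), and it was -0.89 within the satellite-high and -0.06 within the satellite-low libraries. It was -0.09 without 4 °C replicate 11 and -0.85 without 4 °C replicate 2. The gene lies at 134199223 to 134235431 on the minus strand of chromosome 1 and overlaps the muscle gene Mybph on the plus strand. Mybph reached 1.301 and 0.211 FPKM at 4 °C and at most 0.0907 FPKM elsewhere. The libraries were directional, but the sources do not say whether the FPKM used the strand.

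Ptger3, a receptor for prostaglandin E2 on the plus strand of chromosome 3 (157566892 to 157645888), was of the same order as Adora1 but less even. Its values were 5.92 and 15.8 FPKM at 22 °C, 5.01 and 4.06 FPKM at 4 °C, 11.01 and 9.88 FPKM under CD, and 15.96 and 14.6 FPKM under HFD. Both 4 °C libraries were below the other 6, and the 22 °C libraries lay far apart from each other. The cold difference was -0.97 (SE 0.43, 95% confidence interval -2.06 to 0.13, adjusted p 0.242 with limma). It was -0.45 within the satellite-high and -1.48 within the satellite-low libraries, -0.33 without 22 °C replicate 7 and -1.605 without 22 °C replicate 4.

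Ffar2, the receptor for acetate and propionate on the minus strand of chromosome 7 (30818348 to 30823775), was lowest at 4 °C and highest under HFD. It had 2.68 and 2.12 FPKM at 22 °C, 1.703 and 0.862 FPKM at 4 °C, 1.73 and 1.702 FPKM under CD, and 3.18 and 5.61 FPKM under HFD. The HFD libraries were above the 22 °C libraries, these were above the CD libraries, and CD and 4 °C overlapped. The cold difference of -0.60 (SE 0.23, 95% confidence interval -1.18 to -0.01) had an adjusted p of 0.2002 with limma. It was -0.98 within the satellite-high and -0.21 within the satellite-low libraries, and -0.33 without 4 °C replicate 11.

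Npy1r, the receptor for neuropeptide Y from sympathetic nerves on the plus strand of chromosome 8 (66697192 to 66706792), was low throughout. It stood at 0.335 and 0.248 FPKM at 22 °C, 0.437 and 0.418 FPKM at 4 °C, 0.152 and 0.216 FPKM under CD, and 0.465 and 0.276 FPKM under HFD. The cold difference of 0.15 (SE 0.07, adjusted p 0.288 with limma) was the only positive one among the receptors tested, with 0.087 within the satellite-high and 0.20 within the satellite-low libraries, 0.096 without 22 °C replicate 7 and 0.036 with rescaling to the autosomal sum. The CD libraries were below all others. Adra2a, the α2A-adrenergic receptor through which noradrenaline can oppose its own β-adrenergic signal, was close to the limit of measurement. It lies on the plus strand of chromosome 19 (54045182 to 54048982). Its values of 0.0138 to 0.0442 FPKM over the 8 libraries, an estimated 6 to 20 fragments each, were under the filter of 0.1 FPKM, and all groups overlapped. A difference in Adra2a was not detectable at this depth.

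Of the 6 receptors other than Hcar1, 5 passed the filter in the cold comparison and none passed the threshold, against 1.44% of the 17477 genes tested (1.22% higher and 0.223% lower). A p under 0.05 before adjustment was seen for Hcar2 (0.00196) and Ffar2 (0.0479), and for 4280 of all genes. Both 4 °C libraries were below both 22 °C libraries for 4 of the 6 (Hcar2, Adora1, Ptger3 and Ffar2), against 20.6% of all genes tested. Both were above for Npy1r alone, against 37.9% of all genes. The median log2 fold change of the 5 tested was -0.60, against 0.07 over all genes.

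Under HFD no receptor differed from CD past the threshold. Of the 7 receptors 6 passed the filter and none passed limma's test, against 0.0684% of 17543 genes (0.0513% higher and 0.0171% lower), while 2532 genes had a p under 0.05 before adjustment. Ffar2 had a 2.56-fold higher mean (1.72 ± 0.0219 FPKM under CD and 4.40 ± 1.72 FPKM under HFD, SD, n = 2 each). Its log2 fold change was 0.95 (SE 0.32, 95% confidence interval 0.21 to 1.70), with a limma p of 0.0192 before and 0.247 after adjustment. It was 0.63 within the satellite-high and 1.27 within the satellite-low libraries, 0.62 without HFD replicate 6 and 0.61 with quantile normalization. Hcar1 went from 0.721 ± 0.417 to 1.48 ± 0.344 FPKM (SD, n = 2 each), with a log2 fold change of 0.54 (SE 0.24, 95% confidence interval -0.01 to 1.09, adjusted p 0.355 with limma). It was 0.65 within the satellite-high and 0.43 within the satellite-low libraries, 0.29 without CD replicate 8 and 0.31 with quantile normalization. Both HFD libraries were above both CD libraries for Hcar1, Ptger3, Npy1r and Ffar2, 4 of the 7 receptors, against 39.9% of all genes tested, and both were below for none, against 5.8%. The 6 tested receptors had a median log2 fold change of 0.36, beside 0.18 over all genes tested and 0.29 for the median mRNA gene.

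The other tested receptors had the following diet differences. Ptger3 had a log2 fold change of 0.51 (95% confidence interval -0.30 to 1.32, adjusted p 0.553 with limma), with 0.64 within the satellite-high and 0.38 within the satellite-low libraries, 0.24 with quantile normalization and 0.18 with median centring. Npy1r had 0.21 (-0.03 to 0.45, adjusted p 0.411), with 0.27 and 0.15 within the same library types, 0.12 with quantile normalization and 0.108 without HFD replicate 2. Hcar2 had -0.12 (-0.93 to 0.69, adjusted p 0.903), and its sign turned when CD replicate 6 (0.40) or HFD replicate 2 (0.10) was left out. It was 0.18 within the satellite-high and -0.42 within the satellite-low libraries. Adora1 had 0.11 (-0.70 to 0.93, adjusted p 0.909), which turned to -0.22 with median centring, -0.18 with quantile normalization and -0.042 with rescaling to the autosomal sum, and was 0.12 and 0.11 within the satellite-high and satellite-low libraries.

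**Figure D2:**
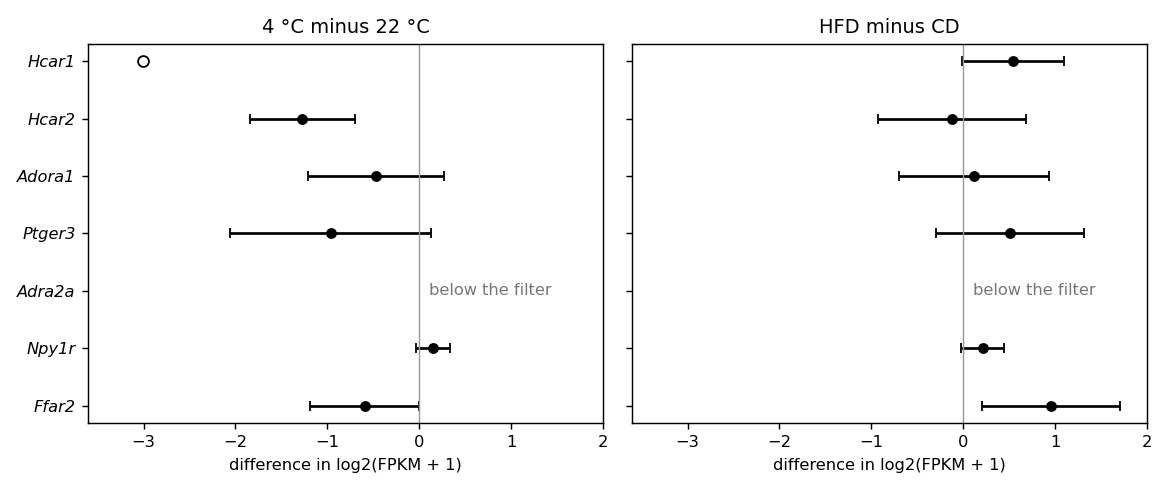
Differences in log2(FPKM + 1) for the receptor genes, 4 °C minus 22 °C on the left and HFD minus CD on the right. Filled points carry limma's 95% confidence interval, and the open point for Hcar1 in the cold, at -3.01, carries none because the gene was picked for it. The intervals of Hcar2 (-1.84 to -0.70) and Ffar2 (-1.18 to -0.01) in the cold and of Ffar2 under HFD (0.21 to 1.70) were clear of 0, and none of the 3 passed the threshold after adjustment.

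Markers of other cells in the tissue differed between the groups as well. The summed FPKM of 11 of the 12 listed skeletal muscle markers found in the table was 112 to 547 at 22 °C, 1984 to 4395 at 4 °C, 563 to 1530 under CD and 16.4 to 187 under HFD. All 11 were higher in both 4 °C than in both 22 °C libraries, against 37.9% of all genes tested, and 10 of the 11 were lower in both HFD than in both CD libraries, against 5.8%. All 10 macrophage markers were higher in both HFD libraries than in both CD libraries, against 39.9% of all genes, and their sum was 54.2 to 140 under CD and 290 to 328 under HFD. The sum of 10 neutrophil markers was 3.75 to 5.19 under CD and 8.36 to 17.5 under HFD, and all 6 that were tested were above CD in both libraries, against the same 39.9%. In the temperature pair, the macrophage sum was 73.2 to 100.01 at 22 °C and 91.9 to 184 at 4 °C, and the neutrophil sum 3.10 to 3.58 and 1.67 to 2.89, with the neutrophil genes Ly6g and Camp at 0 in all 4 libraries. Hcar2 and Ffar2 are known in myeloid cells as well as in fat cells, and the part of these cells in the values of either gene was not tested. The sum of 9 white adipocyte markers was 35.7 to 60.4 at 22 °C, 38.4 to 55.2 at 4 °C, 8.48 to 14.96 under CD and 204.5 to 205.5 under HFD. Lep, Nnat, Mest and Npr3 of that list were higher past the threshold under HFD, against 0.0513% of all genes tested. Each of them passed in only 4 or 5 of 11 other settings, with limma's adjusted p reaching 0.528 for Lep. With quantile normalization, median centring or rescaling to the autosomal sum, no gene passed under HFD. In the cold Npr3 rose (log2 fold change 2.14, adjusted p 0.0442 with limma) and Agt had 1.604 (adjusted p 0.0751), whereas Lep had -2.13 (adjusted p 0.0527) and Nnat -1.85 (adjusted p 0.0517). The 8 general adipocyte markers in the list summed to 5179 to 5875, 9372 to 10596, 4782 to 8569 and 6352 to 8527 FPKM in the same order. Their part in the receptor values was not tested either.

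Cyclic AMP is made by adenylyl cyclases, which Gi inhibits. In the cold 1 of the 8 tested rose past the threshold, against 1.22% of all genes tested. Adenylyl cyclase 3 (Adcy3) stood at 20.5 and 35.4 FPKM at 22 °C and at 248 and 229 FPKM at 4 °C. These values are per gene, and the transcripts of Adcy3 were not told apart. The mean was 8.52-fold higher, and the log2 difference was 3.09 (SE 0.32, limma, adjusted p 0.0279). The other 7 did not pass, and Adcy6, the next most abundant, had -0.13 (adjusted p 0.728). Under HFD, Adcy3 had 17.3 and 19.8 FPKM against 51.9 and 43.7 FPKM under CD, without passing the threshold (-1.32, adjusted p 0.219). Of 17 cAMP effectors and lipolysis genes, the phosphodiesterase Pde4d, which degrades cyclic AMP, rose from 25.8 and 26.8 FPKM to 76.9 and 68.9 FPKM in the cold (log2 fold change 1.43, SE 0.21, adjusted p 0.0467 with limma). The hormone-sensitive lipase Lipe (0.24, adjusted p 0.647) and the lipid droplet protein Plin1 (0.24, adjusted p 0.669) did not pass. The medians of the cyclases were 0.31 in the cold and 0.33 under HFD, and those of the effectors 0.33 and 0.11. Under the 3 other scalings (quantile normalization, median centring and rescaling to the autosomal sum) the cyclases had 0.041 to 0.18 in the cold and -0.0028 to 0.21 under HFD. The effectors had -0.031 to 0.10 and -0.23 to -0.049, so that their sign turned with the rescaling in the cold and with all 3 under HFD.

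The receptors signal through G protein α, β and γ subunits. Of 16 subunits tested, 1 fell past the threshold in the cold, against 0.223% of all genes tested. This was Gng7, a γ subunit, which went from 1.63 and 1.25 FPKM to 0.230 and 0.146 FPKM (log2 fold change -1.04, SE 0.12, adjusted p 0.039 with limma). The inhibitory subunits were among the genes that did not pass, with Gnai2 at 23.5 and 21.8 FPKM at 22 °C and 24.5 and 19.4 FPKM at 4 °C. The median of the subunits was 0.02 in the cold, turning to -0.31 to -0.17 under the other scalings, and 0.45 under HFD (0.13 to 0.29). None of 15 RGS and GPSM genes, which shorten or tune Gi signalling, passed in either comparison, and their medians were 0.15 in the cold (-0.026 to 0.09 under the other scalings) and 0.47 under HFD (0.24 to 0.37). The most abundant of them were Rgs5, at 55.6 and 55.1 FPKM at 22 °C and 38.7 and 35.97 FPKM at 4 °C (adjusted p 0.181), and Rgs3 (0.69, adjusted p 0.227).

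Among 22 further Gi-coupled receptors with ligands of fat or metabolism, 9 passed the filter in the cold. Of these, 1 fell past the threshold, against 0.223% of all genes tested. The apelin receptor Aplnr went from 1.86 and 2.53 FPKM to 0.142 and 0.140 FPKM, 15.6-fold lower (log2 fold change -1.48, SE 0.14, adjusted p 0.0246 with limma). The sphingosine 1-phosphate receptor S1pr1 had the opposite sign, with 17.8 and 12.3 FPKM at 22 °C and 32.04 and 31.3 FPKM at 4 °C (1.05, adjusted p 0.0842), and the succinate receptor Sucnr1 had -0.31 (adjusted p 0.55). Their median was -0.09 in the cold (-0.31 to -0.17 under the other scalings). Under HFD none of 10 tested passed, with a median of 0.49 (0.22 to 0.40 under the other scalings), and both HFD libraries were above both CD libraries for 8 of the 10, against 39.9% of all genes tested. Among the 8 was Sucnr1 at 3.32 and 5.03 FPKM against 1.302 and 0.667 FPKM (1.38, adjusted p 0.153). None of 11 Gs-coupled counterparts and Gs genes tested in the cold passed (median 0.0043, and -0.043 to 0.0087 under the other scalings), nor did any of 10 under HFD (median 0.29, and 0.12 to 0.23). The β3-adrenergic receptor Adrb3 had 31.3 and 23.8 FPKM at 22 °C and 22.8 and 23.9 FPKM at 4 °C (-0.22, adjusted p 0.584), and Gnas, which encodes the stimulatory subunit, had 0.95 (adjusted p 0.203).

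Genes that handle the ligands were examined by ligand. For lactate, 5 of 6 genes were higher in both 4 °C libraries, against 37.9% of all genes tested, and none passed the threshold. The remaining gene was the transporter Slc16a7. It went from 6.87 and 5.63 FPKM at 22 °C to 2.50 and 1.63 FPKM at 4 °C (log2 fold change -1.25, SE 0.22, adjusted p 0.0584 with limma). Ldha, the lactate dehydrogenase subunit that favours lactate formation, had 253 and 367 FPKM at 22 °C and 615 and 718 FPKM at 4 °C (log2 fold change 1.12, SE 0.34, adjusted p 0.129 with limma). The subunit Ldhb had 155 and 166 FPKM against 467 and 358 FPKM (1.34, SE 0.28, adjusted p 0.0726 with limma). Bsg, the chaperone of the monocarboxylate transporters, had 146 and 144 FPKM against 376 and 334 FPKM (1.28, SE 0.26, adjusted p 0.0656). The median of the lactate genes was 1.20, with 0.67 to 0.94 under the 3 other scalings, and it was -0.13 under HFD, with -0.48 to -0.27. For 3-hydroxybutyrate, the ligand of Hcar2, its dehydrogenase Bdh1 rose from 0.0768 and 0.0556 FPKM at 22 °C to 4.15 and 6.80 FPKM at 4 °C (2.57, SE 0.23, adjusted p 0.0218 with limma). Both 22 °C values were under the filter of 0.1 FPKM, so Bdh1 entered the test only through the 4 °C libraries, where it was high. Its call is therefore given as a description. Of all genes tested, 1.22% were past the threshold and higher. The other 4 genes of that list did not pass, among them Oxct1, which takes part in the use of ketone bodies (0.13, adjusted p 0.787), and Acat1 (0.25, adjusted p 0.562). The medians of that list were 0.25 in the cold (0.0091 to 0.089 under the other scalings) and 0.13 under HFD, where it turned to -0.23 to -0.037. In the diet groups Bdh1 had 0.116 and 0.453 FPKM under CD and 0.170 and 0.035 FPKM under HFD.

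None of the genes for the remaining ligands passed in the cold. Of 9 adenosine genes tested, the nucleoside transporter Slc29a1 had 0.80 (adjusted p 0.18) and the adenosine kinase Adk 0.15 (adjusted p 0.698). Of 9 prostaglandin E2 genes tested, the phospholipase Plaat3 (also AdPLA) had 86.8 and 75.1 FPKM at 22 °C and 53.7 and 35.2 FPKM at 4 °C (-0.88, adjusted p 0.148), and Ptges2 had 0.68 (adjusted p 0.143). Of 4 noradrenaline and neuropeptide Y genes tested, the peptidase Dpp4 had -0.05 (adjusted p 0.855). Of 5 acetate genes, Acss1 had 0.87 (adjusted p 0.0937) and Acss2 -0.87 (adjusted p 0.348). The medians of these 4 lists were 0.12, 0.01, 0.22 and 0.87 in the cold and 0.22, 0.39, 0.16 and -0.46 under HFD. Under the other scalings the cold medians of the adenosine (-0.076 to -0.0043) and prostaglandin E2 lists (-0.24 to -0.096) turned, as did that of the noradrenaline list with rescaling to the autosomal sum (-0.043). Under HFD those of the adenosine (-0.0077) and noradrenaline lists (-0.014) turned with quantile normalization. The acetate list kept its signs, with 0.36 to 0.61 in the cold and -0.71 to -0.53 under HFD. No gene of any list of signalling or ligand genes passed under HFD. With either 4 °C library left out no gene at all passed the threshold in the cold comparison, the 5 calls among these lists (Adcy3, Pde4d, Gng7, Aplnr and Bdh1) included. Each of the 5 passed in 8 or 9 of the 11 other settings, and their adjusted p ranged from 0.00203 to 0.221 over all of them and the libraries left out. Of the 5, Bdh1 met the filter only through the 4 °C libraries. The skeletal muscle markers were higher in the same 4 °C libraries as Adcy3, Pde4d, Bdh1 and the lactate genes other than Slc16a7. The part of these markers in the values was not tested.

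**Figure D3:**
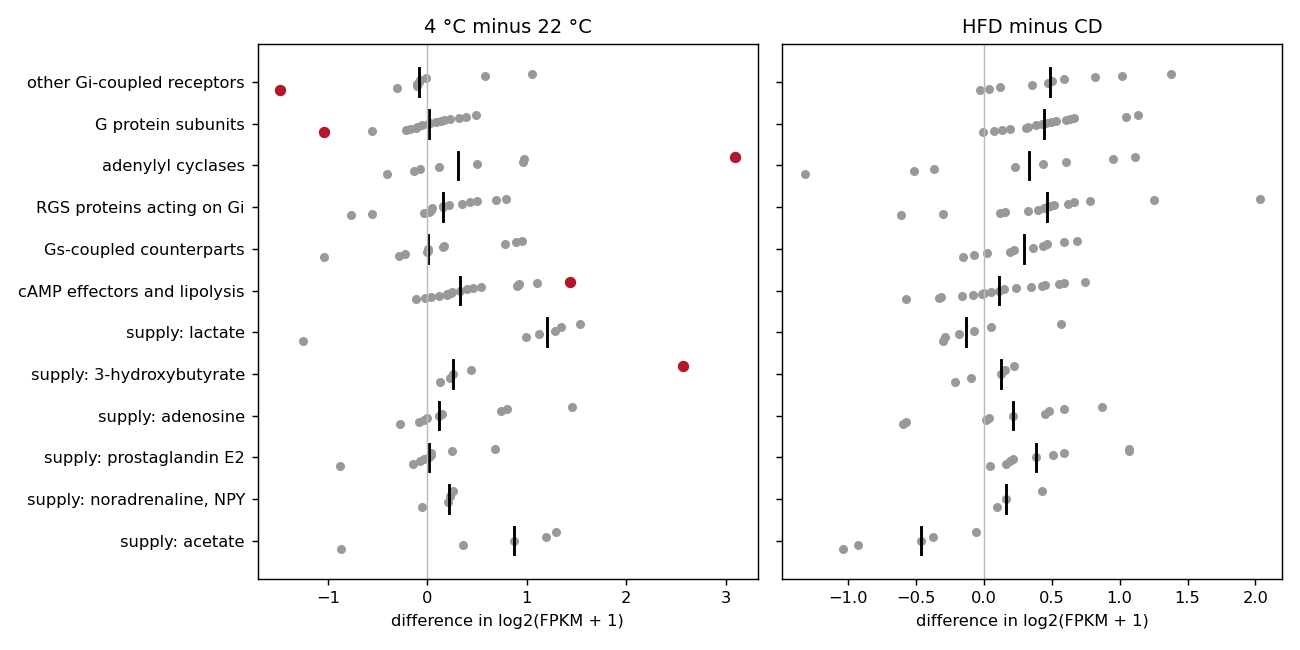
Differences in log2(FPKM + 1) of each tested gene of the pathway lists (points), 4 °C minus 22 °C on the left and HFD minus CD on the right, with the list's median as a black bar. Larger red points are past the threshold, namely Aplnr, Gng7, Adcy3, Pde4d and Bdh1 in the cold and none under HFD. Bdh1 met the filter only through the 4 °C libraries. The lactate genes had the highest median in the cold (1.20).

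The genes whose pattern over the 8 libraries was most like that of Hcar1 were sought among 9928 autosomal protein-coding genes averaging 1 FPKM or more, by Pearson's r of log2(FPKM + 1). This is a description, since the libraries share their groups and 35 genes had an r above 0.9. The nearest were Vat1l (0.986), Gdpd5 (0.972), the exchange factor Vav2 (0.972), the α1D-adrenergic receptor Adra1d (0.971) and angiopoietin 1 (Angpt1, 0.970). Vat1l had 5.52 and 6.78 FPKM at 22 °C and 0.746 to 1.86 FPKM in the other 6 libraries, and Adra1d 2.82 and 3.53 FPKM and 0.809 to 1.54 FPKM. All 5 had their 2 highest values in the 22 °C libraries, as Hcar1 had, which follows largely from choosing them by r. The most opposite were Unc119b (-0.946), Lgr6 (-0.945) and Pigq (-0.936). Lgr6, a receptor for R-spondins, had 1.71 and 3.59 FPKM at 22 °C and 8.74 to 16.8 FPKM elsewhere. Of the other receptors described here, Hcar2 was the most like Hcar1 (0.885), followed by Adora1 (0.438), Ffar2 (0.286), Ptger3 (0.224), Adra2a (0.122) and Npy1r (-0.140).

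**Figure D4:**
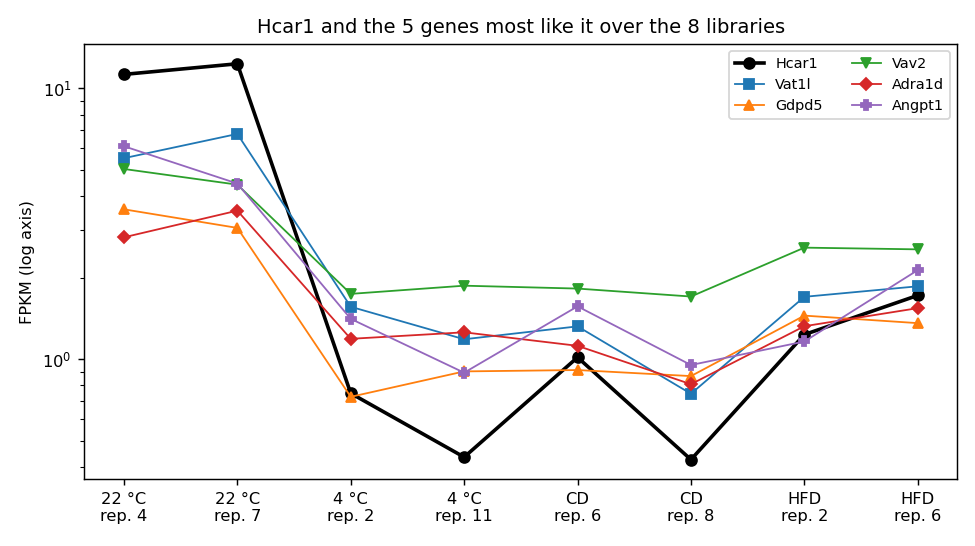
FPKM (log axis) of Hcar1 and the 5 genes most like it in each of the 8 libraries, which are ordered by group and joined by lines only to guide the eye. All 6 genes had their 2 highest values in the 22 °C libraries, which follows largely from choosing the 5 by likeness to Hcar1. Hcar1 spanned the widest fold range, from 0.426 to 12.3 FPKM.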

How the data were processed

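RNA from BAT was depleted of ribosomal RNA and made into directional libraries. According to the study's methods and the submitters' processing notes, the reads were mapped to GRCm38 (GRCm38.p5 in the notes) with TopHat2 2.0.10 and quantified with Cufflinks. The deposited values are FPKM per gene and library, computed by the authors without pooling replicates. They divide by transcript length and library total, so a few very abundant transcripts lower all others. The authors tested counts with DESeq2, which was not repeated, as no counts were used here.

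The model was limma 3.58.1 under R 4.3.3 on log2(FPKM + 1), with eBayes and an intensity trend, using the 4 libraries of a comparison and no covariate. Genes needed 0.1 FPKM in 2 of the 4 libraries, and X, Y and mitochondrial genes were left out because 3 libraries list all X genes at 0. P-values are two-sided and adjusted by Benjamini-Hochberg over all genes tested. The script was tested on simulated data with known changes. With groups of 2, an exact permutation test cannot go below p = 0.333, so none was run. Sums, shares and plots used pandas 2.3.3 and matplotlib 3.10.9.

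Fragments were estimated from the value of 1 fragment, because 97.8% to 98.7% of 1188 to 3013 low values of single-exon genes per library lay within 0.1 fragment of a whole number. A value of 3 fragments on 2 kb of effective length corresponds to 0.0121 to 0.0167 FPKM, which covers counting error only.

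The receptors and the gene lists were chosen with earlier results of these data known. Named were all receptors, each list gene past the threshold (at most 4 per list and comparison), the 2 most abundant genes of each list (except 1 that is not reported here), and the 5 genes most like and the 3 most opposite to Hcar1. Gnai2, Mybph, Agt, Ldhb, Slc16a7 and the genes near Hcar1 are named beside them, all but the genes near Hcar1 after their values were seen. Alternatives changed the pseudocount, the filter, the scaling, the genes and libraries in the fit, the trend and the library type as a covariate.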

Additional observations from a re-analysis of the deposited data

How the results depend on the processing

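No paired analysis was possible because the 22 °C and 4 °C libraries share no replicate number and CD and HFD share only number 6. With 2 libraries a group, each result rests on single libraries, and with 1 left out its lone partner is assumed to vary like the other group. Of the receptors other than Hcar1, 0 passed limma's threshold in the cold, and 1 (Hcar2) passed in 7 alternatives. They included a filter of 1 FPKM, quantile normalization, median centring, rescaling to the autosomal sum, and X, Y and mitochondrial genes kept. The last of these adds X genes listed at 0 in both 22 °C libraries, with the Hcar2 difference unchanged. The rest had library type as a covariate in the fit of 4 or of all 8 libraries. Under HFD the count was 0 in every alternative run. With library type as a covariate, Hcar1 (0.54, adjusted p 0.0321) and Ffar2 (0.95, adjusted p 0.0233) had an adjusted p under 0.05 in the diet comparison without reaching a change of 1. The Hcar1 difference in the cold ranged from -4.14 with a pseudocount of 0.1 FPKM to -2.87. Signs turned in the diet comparison for Adora1 with quantile normalization (-0.18), median centring (-0.22) and rescaling to the autosomal sum (-0.042), and for Hcar2 without CD replicate 6 (0.40) or HFD replicate 2 (0.10), with a range of -0.64 to 0.40 over the libraries left out, and within the satellite-high libraries (0.18). The cause was not tested. The median mRNA gene, at 0.21 in the cold and 0.29 under HFD, came to -0.13 and 0.16 with rescaling to the autosomal sum, and the other scalings brought it near 0.

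Over all genes, 252 passed in the cold (213 higher and 39 lower). The count was 474 with a pseudocount of 0.1 FPKM, 0 without a filter (4691 at an unadjusted p under 0.05), 529 with a filter of 1 FPKM, 511 with quantile normalization (328 higher and 183 lower), 515 with median centring (344 and 171), 578 with rescaling to the autosomal sum (309 and 269) and 920 with X, Y and mitochondrial genes kept. It was 0 without the intensity trend (4172 at an unadjusted p under 0.05), 859 with library type as a covariate, 439 with all 8 libraries in 1 fit, 869 with both, and 0 to 246 with 1 library left out. In the diet comparison 12 passed. The count was 24 with a filter of 1 FPKM, 0 without a filter (2490 at an unadjusted p under 0.05), with quantile normalization (2109), median centring (1958), rescaling to the autosomal sum (2340), X, Y and mitochondrial genes kept (2533) and no intensity trend (2347). It was 745 with library type as a covariate, 75 with all 8 libraries in 1 fit, 439 with both and 122 to 751 with 1 library left out.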
